A study of Mus musculus with 8 samples.

Results

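Transcription regulators of the integrated stress response (ISR) were examined in cells of parietal bone from newborn mice. They were 10 genes chosen by symbol, *Atf4*, *Atf5*, *Ddit3*, *Trib3*, *Nupr1*, *Chac1*, *Sesn2*, *Cebpb*, *Cebpg* and *Jdp2*, out of the 31053 genes counted. The study asked how misfolding of a mutant procollagen chain affects osteoblasts (OBs) as they mature. Cells were taken at postnatal days 4 to 5 from pups of the strain B6.129(FVB)-Col1a2tm1Mcbr/J, kept on C57BL/6J, that were wild type (WT) or heterozygous (Het) for its *Col1a2* allele, a glycine to cysteine substitution in a collagen triple helix that models osteogenesis imperfecta. Het pups carry the allele in every tissue. The replicate was a library, which pooled several pups of a single genotype. With version 3 of the single-cell kit, S1 and S2 were the WT libraries and S3 and S4 the Het ones. With version 3.1, S5 and S6 were WT while S7 and S8 were Het. The software release changed with the kit, and the paper reports independent experiments with OBs of this age. Kit, software and any such experiment cannot be told apart here, and a difference by kit version may hold all of them.

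The ISR is the shared answer of a cell to misfolded protein in the endoplasmic reticulum, lack of amino acids, lack of haem or viral RNA. A kinase phosphorylates the translation factor eIF2, general translation falls, and a few mRNAs with upstream reading frames, among them those of *Atf4* and *Atf5*, are translated more. The proteins made from them are basic leucine zipper (bZIP) factors that pair with C/EBP family members and switch on genes of amino acid supply and, under lasting stress, of cell death. Secretory cells such as osteoblasts, which export large amounts of collagen, depend on this pathway in development. The mRNA counts used here do not measure translation, eIF2 phosphorylation or protein.

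The shared name covers different kinds of proteins. *Atf4*, *Atf5*, *Ddit3* (CHOP), *Cebpb*, *Cebpg* and *Jdp2* encode bZIP factors. *Trib3* encodes a pseudokinase that binds ATF4 and acts in feedback on it, and *Nupr1* a small stress-induced chromatin cofactor. *Chac1*, a glutathione-degrading enzyme, and *Sesn2*, a sestrin that restrains mTORC1, are products of the ISR and do not bind DNA.

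The promoter sequences of the 10 genes were searched for the composite site that C/EBP and ATF factors bind, spelled TGATGNAA or, on the other strand, TTNCATCA. The windows ran from 250 bases before to 50 bases after each transcript start and came from RefSeq (GRCm38.p6). All 10 genes had a window, 13 in all, and *Chac1*, *Jdp2*, *Nupr1* and *Trib3* held a match. The motif was in 1304 of all 32851 windows (3.97%) and in a window of 1219 of 27025 gene symbols (4.51%). The 4 stretches are shown because *Trib3* and *Jdp2* are among the genes whose levels differed by genotype and *Nupr1* differed by OB stage, with *Chac1* as the remaining match. They are written 5′ to 3′ on the strand of the gene, with the match in capitals.

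Trib3, chr2:152344036-152344106, minus strand: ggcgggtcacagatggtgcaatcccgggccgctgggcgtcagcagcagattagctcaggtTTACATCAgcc

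Jdp2, chr12:85599323-85599422, plus strand: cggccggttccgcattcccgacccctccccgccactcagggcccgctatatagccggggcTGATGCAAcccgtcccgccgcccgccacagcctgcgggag

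Nupr1, chr7:126625541-126625640, minus strand: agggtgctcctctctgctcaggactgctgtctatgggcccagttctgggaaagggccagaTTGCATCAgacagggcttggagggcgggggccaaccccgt

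Chac1, chr2:119350992-119351088, plus strand: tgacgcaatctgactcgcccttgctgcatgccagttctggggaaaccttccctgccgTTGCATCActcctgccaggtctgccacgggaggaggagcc

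The match lay 33 bases before the start in *Jdp2*, 110 in *Nupr1* and 193 in *Chac1*, and 14 bases after the start in *Trib3*. These are starts of RefSeq transcripts, which differ from the gene coordinates given with the levels below. By those coordinates the stretches of *Jdp2* and *Nupr1* lie inside the gene, and those of *Trib3* and *Chac1* before it. That of *Jdp2* read TGATGCAA on the gene's strand, and the other 3 lay in the opposite orientation. The cAMP response element TGACGTCA, which reads the same on both strands, was in no window of the 10 genes and in 588 of all windows (1.79%). A match is a description of the letters and not a measured site.

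The 8 libraries held 68625 barcodes (4975 to 20175 each) and 30480239 to 85162035 UMIs each. Of 46420 cells with at least 500 genes and under 10% mitochondrial UMIs, 2671 were OBs by their *Col1a1*, *Runx2*, *Sp7* and *Ibsp* UMIs. *Col1a1* then divided them into 379 early OBs (eOBs, under 0.75% of the cell's UMIs), 1217 differentiating OBs (dOBs, up to 3.5%) and 1075 mature OBs (mOBs, over 3.5%). The other 43749 cells were the comparison. There were 42 (S8) to 299 (S5) mOBs per library, whose summed UMIs ran from 664702 to 4805858. WT S1 and S2 stood apart, since 49.8% and 42.1% of their cells were haematopoietic-like against 2.92% to 8.90% in the other 6 libraries. The allele is a point change in *Col1a2*, so UMI counts cannot check the genotype labels. The levels below are UMIs of the gene per 1000000 UMIs of the population in a library (UPM) and are compared within a gene only. Fold changes are from edgeR with kit version in the model, adjusted by Benjamini-Hochberg over all genes tested.

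In mOBs, 2 of the 10 genes rose in Het libraries and none fell at an adjusted p under 0.05. The larger change was that of *Atf5* (2.01 on the log2 scale) and the smaller that of *Jdp2* (0.81), while *Atf4*, the central factor of the pathway, had a log2 fold change near 0. *Trib3*, close to absent from WT mOBs, was seen in all 4 Het libraries. Across all 9623 genes tested in mOBs, 0.665% were called in either direction, 0.384% higher and 0.281% lower. The low-count filter passed 9 of the 10 genes and removed *Trib3*, whose values are given mainly from its UMIs. The median log2 fold change of the 9 was 0.35, against -0.0015 over all genes tested.

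*Atf5* (ENSMUSG00000038539, chr7:44812256-44816658, minus strand, GRCm38, protein coding), the bZIP factor closest to ATF4, had 43.8 UPM in S1, 39.8 in S2, 21.8 in S5 and 30.2 in S6, the WT libraries. The Het libraries had 240 in S3, 198 in S4, 66.5 in S7 and 123 in S8. All Het libraries lay above all WT libraries, with those of kit version 3 highest. The means were 33.9 ± 9.87 UPM in WT and 157 ± 77.1 UPM in Het mOBs (SD, n = 4 each), a log2 difference of 2.01 in edgeR (SE 0.23, adjusted p = 0.0077). The call was kept in 21 of 23 alternatives that held both kit versions, with fold changes of 1.73 to 2.35. It was lost without S1 (1.87 to 2.28 over the fits that left out 1 library, adjusted p = 0.0671 without S1) and with kit version left out of the model. Within kit version 3 it was 2.29 (SE 0.16, adjusted p = 1.02e-07), and within kit version 3.1 it was 1.69 (SE 0.35, adjusted p = 0.474, unadjusted p = 0.0028 in the edgeR fit).

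*Jdp2* (ENSMUSG00000034271, chr12:85599027-85639878, plus strand), a bZIP repressor of AP-1 sites, had 18.6 and 18.1 UPM in WT S1 and S2 and 47.3 and 35.4 in Het S3 and S4. With kit version 3.1 the values were 54.0 and 55.3 in WT S5 and S6 and 100 and 78.2 in Het S7 and S8. Het libraries were higher within each kit version, but the version 3 Het libraries lay below the version 3.1 WT libraries, so the genotypes overlapped across kits. By edgeR the difference was 0.81 (log2, SE 0.14, adjusted p = 0.0192). The call was kept in 18 of the 23 alternatives and lost without S1 (adjusted p = 0.081), S2 (0.0944) or S6 (0.0625), with fold changes of 0.74 to 0.88 when 1 library was left out. It was also lost when cells were thinned to 2000 UMIs (0.53, adjusted p = 0.639) and without kit version in the model. Within kit versions 3 and 3.1 the difference was 1.05 (adjusted p = 0.0123) and 0.68 (adjusted p = 0.420). The exact permutation test, which takes no account of kit version, gave p = 0.171 for *Jdp2*.

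*Trib3* (ENSMUSG00000032715, chr2:152337422-152344032, minus strand) had 0 UMIs in WT S1, 1 in S2, 2 in S5 and 3 in S6. Its UMIs in Het mOBs numbered 34 in S3, 47 in S4, 9 in S7 and 12 in S8. The levels were 0 to 0.723 UPM in WT and 22.6, 16.5, 4.68 and 18.1 UPM in Het libraries. The genotypes did not overlap, and S7 was the lowest Het library. All WT levels were at or below what 3 UMIs would give in these libraries. The ratio of Het to WT was 56.7 in kit version 3 (95% interval 9.89 to 2266, 81 against 1 UMIs) and 15.0 in kit version 3.1 (5.51 to 51.0, 21 against 5 UMIs), where the intervals cover counting error only. As percent of UMIs *Trib3* was 0.00150 higher in Het mOBs (two-sided exact permutation p = 0.0286 over 70 assignments of 4 and 4 libraries, the smallest this design allows). Within a kit version, 2 against 2 libraries cannot go below p = 0.333 in the exact test. *Trib3* entered the edgeR fits without S1, S2, S5, S6 or S7 and was called in each (adjusted p = 3.25e-05 to 0.0392), and it was called within kit version 3 (5.24e-05) and not within version 3.1 (0.420). It passes the filter through its Het libraries, so these entries are not independent of the difference.

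*Cebpg* (ENSMUSG00000056216, chr7:35046422-35056573, minus strand) encodes the C/EBP member that pairs with ATF4. Its mOB levels were 27.6 and 26.1 UPM in WT S1 and S2, 31.9 and 28.7 UPM in WT S5 and S6, and 59.3, 48.7, 36.9 and 34.6 UPM in Het S3, S4, S7 and S8. The genotypes did not overlap, although S8 exceeded S5 only slightly. The log2 fold change was 0.53 (SE 0.17) with an edgeR adjusted p of 0.199, so *Cebpg* was not called; without a low-count filter it was 0.55 (0.0327). Within kit version 3 it was 0.90 (SE 0.21, adjusted p = 0.0123) and within kit version 3.1 it was 0.18 (adjusted p = 0.932). The difference between the kit versions was not tested.

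Levels of *Atf5*, *Trib3* and *Cebpg* in all 4 Het libraries were above those in all 4 WT libraries, or 3 of the 10 genes, and none was below. Of 13579 genes with at least 10 UMIs in mOBs, 1.63% lay wholly above and 1.01% wholly below.

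*Atf4* (ENSMUSG00000042406, chr15:80255184-80257541, plus strand) had 178 and 145 UPM in WT S1 and S2, 102 and 108 UPM in WT S5 and S6, and 152, 142, 108 and 165 UPM in Het S3, S4, S7 and S8. The groups overlapped fully, at 133 ± 35.6 and 142 ± 24.5 UPM (SD, n = 4 each). By edgeR the change was 0.03 (log2, SE 0.16, adjusted p = 0.981). It took either sign in the alternatives, from -0.30 in thinned cells to 0.28 within kit version 3.1, and was -0.23 within kit version 3.

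*Ddit3* (ENSMUSG00000025408, chr10:127290774-127296288, plus strand), which encodes the pro-apoptotic partner of C/EBP factors, had 10.1 to 17.4 UPM in WT and 13.0 to 27.3 UPM in Het mOBs, with S3 and S4 highest at 27.3 and 22.1. Het exceeded WT by 0.35 on the log2 scale without a call (SE 0.23, edgeR adjusted p = 0.623), with -0.03 within kit version 3.1. A second annotated gene overlaps *Ddit3* on the same strand and had 0 UMIs in all cells, so that reads falling in both may not have been counted and the level of *Ddit3* is uncertain in both genotypes.

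*Cebpb* (ENSMUSG00000056501, chr2:167688915-167690418, plus strand), a C/EBP factor induced in stress and abundant in myeloid cells, lay at 43.8 and 49.9 UPM in WT S1 and S2, at 16.6 and 22.5 UPM in WT S5 and S6, and at 23.3, 21.7, 34.3 and 22.6 UPM in Het S3, S4, S7 and S8. It was lower in Het libraries of kit version 3 (log2 fold change -1.15, SE 0.22, edgeR adjusted p = 0.0027) and higher, without a call, in kit version 3.1 (0.56, SE 0.25, adjusted p = 0.756). Over all libraries it was -0.33 (SE 0.33, adjusted p = 0.794). Summed haematopoietic markers in mOBs were 671 and 488 UPM in WT S1 and S2 against 31.97 and 164 UPM in Het S3 and S4, the same direction as *Cebpb*. With kit version 3.1 they were 17.8 and 9.57 UPM in WT against 8.32 and 1.504 UPM in Het libraries, the opposite direction. Without OBs that carried markers of another class the fold change was -0.20.

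The cofactor gene *Nupr1* (ENSMUSG00000030717, chr7:126623249-126630861, minus strand) ranged from 223 to 962 UPM in WT and from 403 to 940 UPM in Het mOBs. S1 to S4 were at 503, 962, 940 and 925, and S5 to S8 at 310, 223, 403 and 480, so the spread between kit versions exceeded that between genotypes. With kit version in the model the change was 0.47 (log2, SE 0.21, edgeR adjusted p = 0.455), and without a low-count filter it was 0.48 (0.0205).

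The genes of the 2 ISR products were not called. *Chac1* (ENSMUSG00000027313, chr2:119351229-119354381, plus strand) had 2.08 to 15.9 UPM in WT and 2.08 to 9.32 UPM in Het mOBs, at -0.59 on the log2 scale (SE 0.35, edgeR adjusted p = 0.592). In kit version 3 the ratio of its summed UMIs in Het to those in WT was 0.614 (95% counting interval 0.381 to 0.985, 36 against 41 UMIs), and in kit version 3.1 it was 0.953 (0.378 to 2.13, 8 against 30 UMIs). *Sesn2* (ENSMUSG00000028893, chr4:132492032-132510501, minus strand) had 4.79 to 10.2 UPM in WT and 4.68 to 13.5 UPM in Het mOBs, with a log2 fold change of -0.12 (SE 0.33, adjusted p = 0.945).

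**Figure D1:**
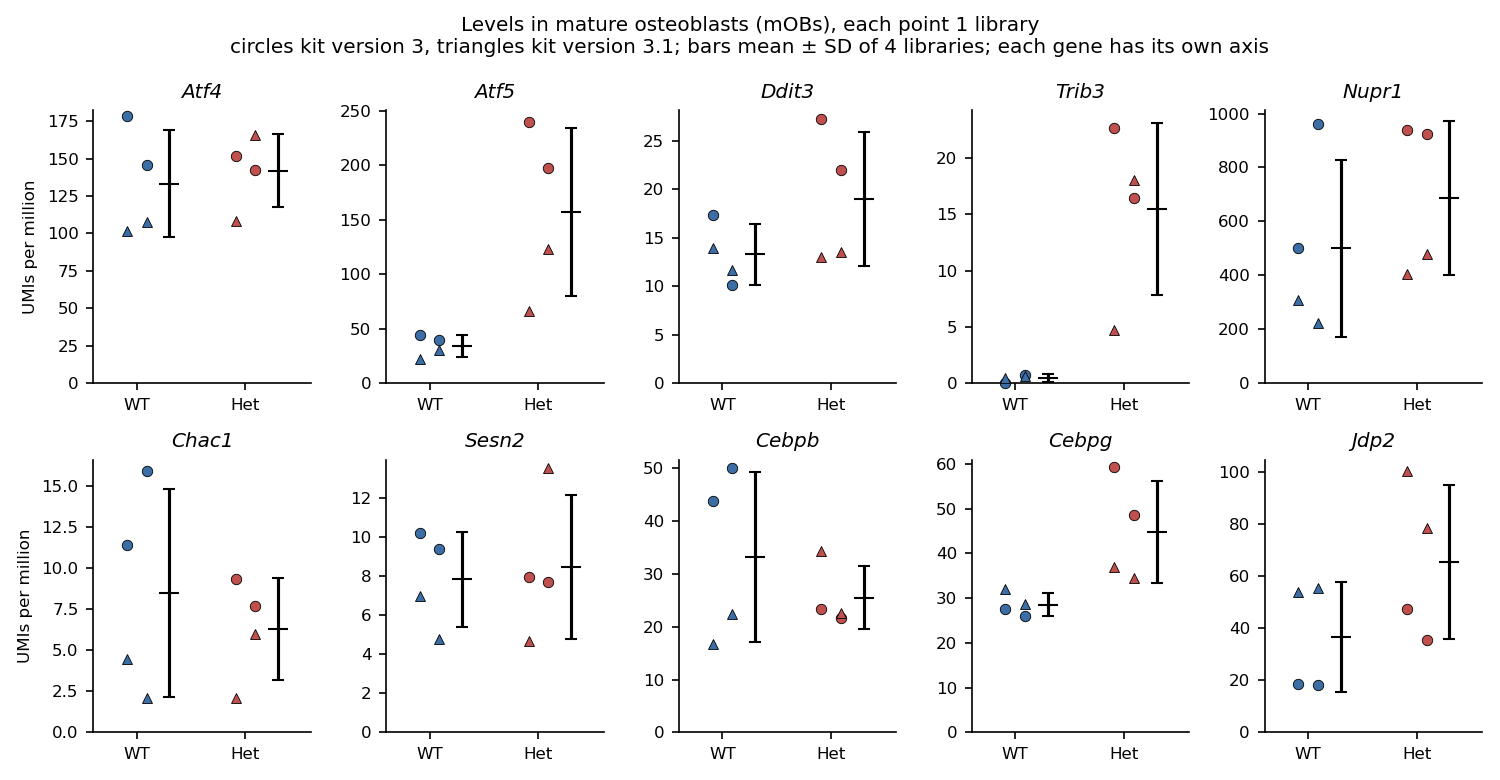
Levels of the 10 genes in mOBs, in UPM, with 1 point per library, circles for kit version 3, triangles for kit version 3.1, and the mean ± SD of 4 libraries beside each group; every gene has its own axis from 0. Het points of *Atf5* (66.5 to 240) and *Trib3* (4.68 to 22.6) lie above every WT point (21.8 to 43.8 and 0 to 0.723), and those of *Atf4* overlap fully.

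Some markers moved with genotype in the same mOBs. Summed smooth muscle and pericyte markers were 64.8 to 220 UPM in WT and 224 to 453 UPM in Het mOBs, although none of the 3 of 7 such genes that were tested was called. The 9 OB differentiation markers summed to 73186 to 119380 UPM in WT and 47928 to 70883 UPM in Het mOBs. None of the 9 was called, 5 had a log2 fold change above 0 and their median was 0.10, so most of the 9 did not share the direction of the sum. Endothelial (11.03 to 17.3 and 3.01 to 32.6), fibroblast (349 to 464 and 355 to 510) and cartilage markers (1519 to 1675 and 1240 to 3496 UPM) overlapped between WT and Het. Without the OBs that had at least 3 markers of another class, *Atf5* was at 2.08 (edgeR adjusted p = 0.0011) and *Jdp2* at 0.73 (0.0250). The part of the differentiation markers in these results was not tested.

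Other genes on the ISR route gave a frame for the 10. Of 38 ISR target genes listed here (enzymes of serine and asparagine synthesis, amino acid transporters, tRNA synthetases), 37 were in the files, 31 were tested in mOBs, 12 rose and none fell, against 0.384% and 0.281% of all genes tested, with a median log2 fold change of 0.98. The number that rose was 4 without S1, 3 without S2, 6 without S3, S4 or S6 and 21 without S7. Of all genes, 9 of 10070 rose without S1, 9 of 10078 without S2, 15 of 10057 without S3 and 17 of 9792 without S4. Without S6 these were 14 of 9647 and without S7 106 of 9623. ISR targets that rose numbered 24 within kit version 3, 0 within version 3.1 and 0 without kit version in the model. The medians of those tested were 1.28, 0.60 and 1.04. In these fits 296 of 8657, 1 of 11039 and 0 of 9623 of all genes rose. *Slc7a5*, a transporter of large neutral amino acids, had 6.51 to 7.42 UPM in WT and 75.3, 77.0, 23.9 and 30.1 UPM in Het S3, S4, S7 and S8 (log2 fold change 2.52, edgeR adjusted p = 0.00118). *Asns*, asparagine synthetase, had 24.3 to 36.9 UPM in WT and 276, 237, 64.5 and 137 UPM in Het libraries (2.33, adjusted p = 0.0225). In both genes, as in *Atf5*, S7 was the lowest Het library and the version 3 libraries were highest. *Slc6a9*, a glycine transporter, and *Slc1a5*, a glutamine transporter, rose by 2.01 (adjusted p = 0.00248) and 1.69 (0.0356).

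The eIF2 kinases and phosphatase subunits, upstream of the 10 genes, held 14 genes tested and none called, with a median of 0.07 and 1 at an unadjusted p under 0.05 in edgeR. Of 35 further bZIP genes that can pair with the factors above, 29 were tested, none rose and 1 fell, with a median of 0.03. The gene that fell was *Fos* (log2 fold change -1.17, edgeR adjusted p = 0.0340), from 141 to 292 UPM in WT to 53.0 to 182 UPM in Het mOBs. *Fos* is also an early gene of tissue dissociation, and of 16 tested dissociation-induced genes it was the 1 called. Summed dissociation genes overlapped between genotypes, at 719 to 1378 UPM in WT and 676 to 1107 UPM in Het mOBs. These lists were chosen with earlier results of the same libraries known and are not independent evidence.

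In dOBs no gene of the 10 was called, and 8 were tested. Over all 9857 genes 0% were called by edgeR, 714 had an unadjusted p under 0.05, 1 of them among the 10, and DESeq2 called 4. *Atf5* had 32.5 and 34.2 UPM in WT S1 and S2, 29.5 and 36.6 UPM in WT S5 and S6, 43.3 and 55.9 UPM in Het S3 and S4, and 36.7 and 38.3 UPM in Het S7 and S8. All Het values were above all WT values, yet by a narrow margin in kit version 3.1, and the log2 fold change was 0.31 (SE 0.15, adjusted p = 0.680). *Nupr1*, the gene with an unadjusted p under 0.05, was at 0.37 (adjusted p = 0.622), *Cebpg* at 0.21, *Ddit3* at 0.15, *Atf4* at 0.09 and *Sesn2* at 0.07. *Jdp2* was at -0.26 (adjusted p = 0.683), the opposite side from mOBs. *Cebpb* was at -0.63 over all libraries, from -1.92 within kit version 3 (adjusted p = 0.0016) to 0.09 within kit version 3.1.

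*Trib3* UMIs in dOBs were 2 in S1, none in S2, 8 in S5 and 2 in S6 (WT), against 5, 4, 5 and 2 for the Het libraries S3, S4, S7 and S8. Het mOBs had 9 to 47. In Het libraries its level in mOBs was 4.36 times that in dOBs with kit version 3 (95% counting interval 2.19 to 9.88, 81 against 9 UMIs) and 5.64 times with version 3.1 (2.31 to 15.7, 21 against 7 UMIs). *Chac1* had 0 to 10 UMIs per library in dOBs and, like *Trib3*, did not pass the filter.

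In eOBs 7 of the 10 were tested and none was called, with none at an unadjusted p under 0.05, while 0.0123% of 8118 genes were called by edgeR and 282 had an unadjusted p under 0.05. DESeq2 called 3 genes there. *Atf5* had a log2 fold change of 0.02, *Cebpg* 0.04, *Atf4* -0.10, *Nupr1* -0.13, *Jdp2* -0.31, *Cebpb* -0.36 and *Ddit3* -0.61. No UMI of *Trib3* was counted in Het eOBs (0 of 1922865 UMIs), where 3 UMIs correspond to 1.56 UPM over the 4 libraries together and to 2.68 to 14.7 UPM in single libraries.

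In the other cells all 10 were tested and none was called. Among 16502 genes 0% were called by edgeR, 4129 had an unadjusted p under 0.05, and DESeq2 called 1927. *Atf5* was at 0.48 (adjusted p = 0.212), at 0.24 without haematopoietic-like cells, and at 0.89 and 0.05 within kit versions 3 and 3.1. *Cebpb* was at -1.16 (SE 0.49, adjusted p = 0.199), the 1 of the 10 genes with an unadjusted p under 0.05. It was -2.35 within kit version 3 (adjusted p = 0.0062), -0.00 within kit version 3.1 and -0.47 without haematopoietic-like cells, whose share of cells was 49.8% in S1, 42.1% in S2, 6.49% in S3 and 8.90% in S4. *Nupr1* was at 0.47, with 1.19 within kit version 3 (adjusted p = 0.0311) and -0.27 within kit version 3.1. *Sesn2* was at -0.41, with -0.95 within kit version 3 (adjusted p = 0.0252). These 3 calls within kit version 3 stand beside 5216 of all 15626 genes called in the same fit. *Jdp2* was at -0.36 and at 0.05 without haematopoietic-like cells. *Ddit3* (-0.21), *Cebpg* (-0.16), *Chac1* (-0.13), *Trib3* (-0.10) and *Atf4* (-0.10) were also without a call.

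**Figure D2:**
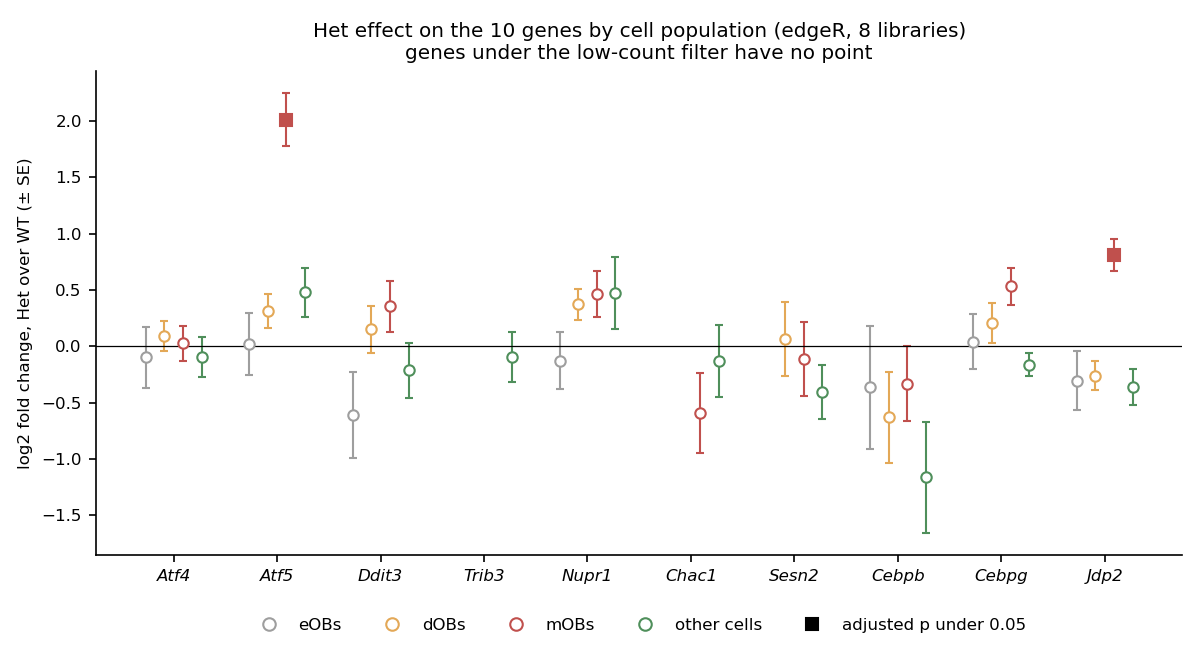
Log2 fold changes of Het over WT libraries (± SE, edgeR on summed UMIs of 8 libraries) for the 10 genes in eOBs, dOBs, mOBs and other cells; filled squares have an adjusted p under 0.05 and genes under the low-count filter have no point. The 2 filled squares are *Atf5* (2.01) and *Jdp2* (0.81) in mOBs, while *Jdp2* lies below 0 in the other 3 populations without a call, a sign that turned in dOBs thinned to 2000 UMIs (0.25), in eOBs of stricter selection, where S3 and S4 had under 10 cells and 6 libraries remained (0.47), and in other cells without haematopoietic-like cells (0.05).

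Whether the genotype difference was larger in mOBs was tested directly, as a term for the difference of log2 fold changes with the library as a block. Against the other cells 9 of the 10 were tested and 2 were called, both with the Het effect higher in mOBs. Of all 11794 genes 1.46% were called, 0.941% with the Het effect higher in mOBs and 0.517% with it lower. For *Atf5* the difference was 1.59 (SE 0.24, edgeR adjusted p = 0.00158), called in 21 of 21 alternatives at 1.32 to 1.81. For *Jdp2* it was 1.25 (SE 0.21, adjusted p = 0.00534), called in 17 of 21 alternatives and lost without S1 (adjusted p = 0.0984), with under 5% mitochondrial UMIs (0.0567) and in cells thinned to 2000 UMIs (0.134). The make-up of the other cells differed between libraries, with 2.12% (S1) and 3.15% (S2) of cartilage-like cells in WT and 22.3% (S3) and 15.1% (S4) in Het libraries of kit version 3, beside the haematopoietic-like shares given above. Without haematopoietic-like cells the *Jdp2* difference was 0.83 and not called (adjusted p = 0.103), and that of *Atf5* was 1.79 (0.000444). Without cartilage-like cells they were 1.06 (0.0203) and 1.57 (0.00693). *Cebpb* (0.94, adjusted p = 0.0697) and *Cebpg* (0.77, adjusted p = 0.0742) did not pass, although *Cebpb* did in 3 of 21 alternatives, nor did *Ddit3* (0.67), *Sesn2* (0.40), *Atf4* (0.19), *Nupr1* (0.05) and *Chac1* (-0.51). Those 3 were without S8 (1.05, adjusted p = 0.0378), without a low-count filter (0.85, 0.0194) and with looser OB selection (0.86, 0.0456), while without haematopoietic-like cells *Cebpb* was at 0.23. The median over the 9 was 0.67 and that over all genes 0.056.

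Between mOBs and dOBs no gene reached an adjusted p under 0.05 in edgeR (0% of 11794, with 536 at an unadjusted p under 0.05 and 3 of these among the 9 of the 10 genes tested; no other tool was run). *Atf5* differed by 1.59 (SE 0.27, adjusted p = 0.0763), and was called in 2 of 19 alternatives, without S7 (1.80, adjusted p = 0.0370) and without a low-count filter (1.6, 2.06e-06). *Jdp2* differed by 1.05 (SE 0.23, adjusted p = 0.203; called without a low-count filter, 1.06, 0.0141) and *Cebpb* by 0.64. S7 was the Het library with the lowest *Atf5* in mOBs.

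Levels along *Col1a1*, which defined the stages, were read in finer bins. *Atf5* in Het OBs was 37.4 UPM in eOBs and 38.5 and 49.6 UPM in the lower and upper bin of dOBs. It was 110 ± 76.4 at 3.5% to 6%, 191 ± 94.8 at 6% to 10% and 206 ± 86.4 UPM above 10% (SD over 3 or 4 libraries with at least 10 cells). WT OBs stayed between 27.0 and 36.8 UPM in all bins, and all Het libraries were above all WT libraries in both bins over 6%. *Trib3* in Het OBs went 0, 1.76, 4.19, 9.53, 19.0 and 17.7 UPM over the same bins, and in WT it did not exceed 1.51. The bins come from the same cells as the stages, so the course is a description.

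*Nupr1* was higher in bins of higher *Col1a1* in both genotypes, with 90.0 UPM in the lowest bin and 649 in the highest in WT, and 93.6 and 1145 UPM in Het. Het libraries were all above WT libraries in 1 bin, 3.5% to 6% (205 ± 52.2 UPM in WT and 502 ± 148 UPM in Het). *Jdp2* went the other way across the mOB bins, with 53.3, 36.4 and 17.8 UPM in WT and 80.7, 52.5 and 37.3 UPM in Het. With kit version 3, mOBs above 10% *Col1a1* were 44 of 73 (S1) and 39 of 77 (S2) in WT. In Het they were 10 of 79 (S3) and 62 of 192 (S4). With version 3.1 they were 69 of 299 (S5) and 58 of 208 (S6) in WT. In Het they were 11 of 105 (S7) and 15 of 42 (S8). The part of this make-up in the *Jdp2* difference of mOBs was not tested. *Cebpb* in WT was 94.0 UPM in the lowest bin and 31.1 in the highest. *Cebpg* in the 6% to 10% bin was 28.0 UPM in WT and 51.2 UPM in Het, without overlap.

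**Figure D3:**
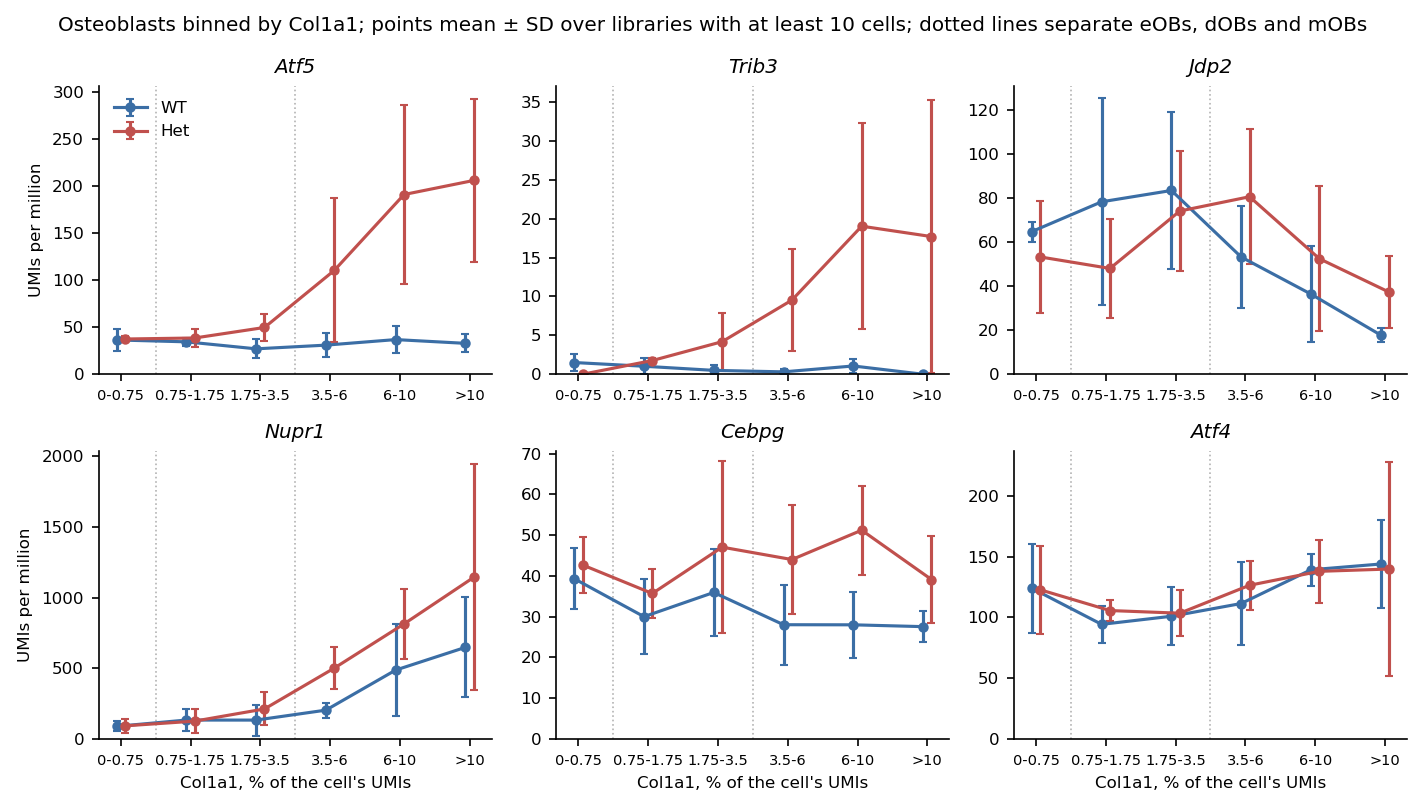
Levels in UPM (mean ± SD over libraries with at least 10 cells) of the genes against bins of *Col1a1* as percent of the cell's UMIs, WT and Het; dotted lines separate eOBs, dOBs and mOBs. *Atf5* in Het OBs goes from 37.4 in the first bin to 206 in the last while WT stays at 27.0 to 36.8, and *Nupr1* is higher at high *Col1a1* in both genotypes.

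In WT libraries alone the stages differed in 2 of the 10 genes. Of 8 genes tested between mOBs and eOBs, *Nupr1* was higher in mOBs and *Cebpb* lower, where 15.1% of all 9438 genes were called (8.74% higher and 6.33% lower). Without TMM scaling the median of all genes moved from -0.024 to -0.45 and 444 genes were called higher and 2734 lower, in place of 825 and 597, with both calls kept. *Nupr1* went from 90.0 ± 34.6 UPM in eOBs to 138 ± 78.4 in dOBs and 500 ± 330 in mOBs (SD, n = 4), a log2 difference of 2.75 (SE 0.32, edgeR adjusted p = 0.00258) that stayed called when any WT library was left out (2.43 to 3.08). *Cebpb* went from 94.0 ± 65.3 to 56.5 ± 25.6 and 33.2 ± 16.1 UPM, with a log2 fold change of -0.90 (SE 0.20, adjusted p = 0.0183) that lost its call without S2 (adjusted p = 0.0833) or S5 (0.0808). Summed haematopoietic markers were also lower in mOBs, at 671 (S1), 488 (S2), 17.8 (S5) and 9.57 UPM (S6). In eOBs they were 1013, 533, 88.1 and 60.1 UPM. Their part in the *Cebpb* difference was not tested.

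*Atf5* in WT held at 36.4 ± 12.03, 33.2 ± 2.996 and 33.9 ± 9.87 UPM over eOBs, dOBs and mOBs, differences within the spread of the libraries. With TMM scaling the log2 fold change from eOBs to mOBs was 0.30 (adjusted p = 0.432) and without it -0.14, so the sign depended on the scaling, as did that of *Sesn2* (0.34 and -0.09). *Atf4* was at 124 ± 36.7, 93.9 ± 18.02 and 133 ± 35.6 UPM (0.55, adjusted p = 0.323), and was called without S5 (0.91, adjusted p = 0.0434). *Jdp2* was at 64.9 ± 4.53, 73.9 ± 38.3 and 36.5 ± 20.98 UPM (-0.44), *Ddit3* at -0.13 and *Cebpg* at -0.05, all without a call. *Chac1* did not pass the filter. Its summed UMIs in WT were 21.8 times as frequent in mOBs as in eOBs with kit version 3 (95% counting interval 3.69 to 880, 41 against 1 UMIs) and 2.39 times with version 3.1 (0.744 to 12.3, 30 against 3 UMIs), an interval that includes no difference.

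Against the other cells of WT libraries all 10 were tested, 1 was higher and 3 lower in mOBs, where 25.1% of 14392 genes were called (8.68% higher, 16.4% lower). *Nupr1* was higher by 3.02 (SE 0.59, edgeR adjusted p = 0.0142), a call lost without S1 (adjusted p = 0.0628). *Cebpb* was lower (log2 fold change -1.34, SE 0.17, adjusted p = 0.0031) in every alternative, and *Jdp2* (-1.04, SE 0.16, adjusted p = 0.0057) in 13 of 14, the exception being cells thinned to 2000 UMIs. *Ddit3* (-1.17, SE 0.33, adjusted p = 0.0460) kept its call in 10 of 14 alternatives and lost it without S2, S5 or S6 (adjusted p up to 0.147) and with under 5% mitochondrial UMIs (0.0516). *Chac1* was at 2.61 (SE 0.79, adjusted p = 0.0572), and was called in 3 of 13 alternatives, without S6 (3.46, adjusted p = 0.0138), with stricter OB selection (2.75, 0.0402) and in mOBs over 5% *Col1a1* (2.89, 0.0195), and *Atf5* at 0.58 (adjusted p = 0.286). *Trib3* was at -1.16 (adjusted p = 0.185).

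The other cells divide into classes, each called "-like" from at least 3 detected markers. *Cebpb* was highest in haematopoietic-like cells (265 ± 44.4 UPM in WT, n = 4), above every OB stage beyond the spread. *Jdp2* by its mean over the 4 WT libraries was also highest there, with 97.5, 68.9, 134 and 99.5 UPM in S1 to S4 and 644, 818, 728 and 658 UPM in S5 to S8, so that it differed by kit version in both genotypes. Fibroblast-like cells followed at 121 UPM in WT. Within kit version 3 the order was turned, at 83.2 UPM in haematopoietic-like and 96.3 UPM in fibroblast-like WT cells. *Cebpg* was highest in endothelial-like cells, at 85.3 ± 5.79 UPM in WT and 92.4 in Het, ahead of smooth muscle and pericyte-like cells at 65.5.

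*Ddit3* in WT was highest in erythroid-like cells (51.4 UPM) and was 13.3 UPM in mOBs. *Atf5* in WT was highest in fibroblast-like cells (75.2 ± 49.7 UPM) and then cartilage-like cells (48.0), which did not differ beyond that spread, and lowest in haematopoietic-like (10.5) and endothelial-like cells (11.4). In Het libraries the *Atf5* mean of mOBs (157 UPM) exceeded that of every other population (72.7 in fibroblast-like cells). *Trib3* in WT was highest in endothelial-like cells, at 6.72 ± 4.95 UPM, against 3.72 in Het libraries. *Nupr1* and *Chac1* were highest in mOBs (500 and 8.47 UPM in WT), with *Chac1* next highest in cartilage-like cells (2.67). By the ratio of highest to lowest mean *Atf4* varied least over the populations in WT, from 93.9 UPM in dOBs to 163 UPM in cartilage-like cells. Within kit version 3 its highest WT mean was that of mOBs (162), with cartilage-like cells at 120, and within version 3.1 that of cartilage-like cells (206). *Sesn2* lay between 4.19 and 9.95 UPM.

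**Figure D4:**
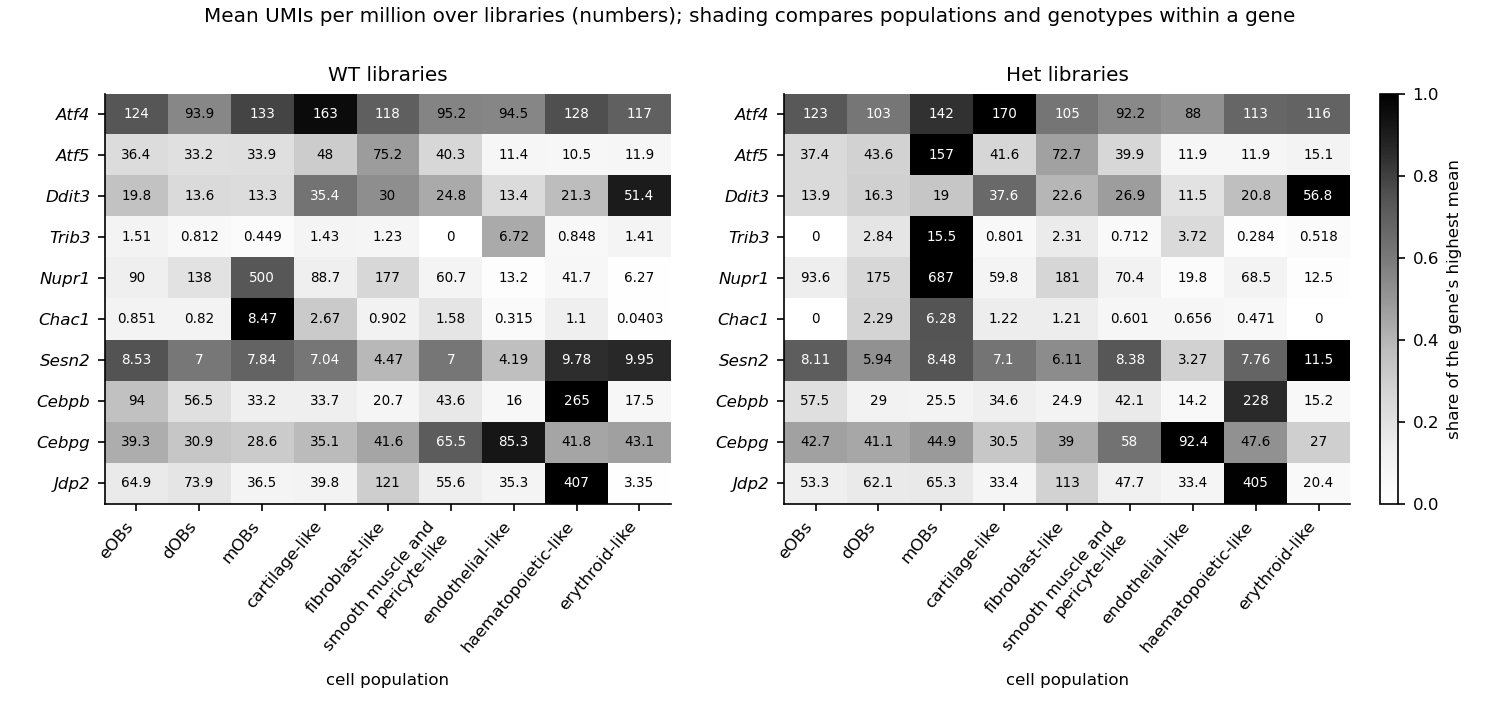
Mean UPM over the libraries with at least 10 cells, printed for each gene (vertical) and population (horizontal) in WT and Het libraries, shaded within each gene relative to its highest mean. *Atf5* and *Trib3* are darkest in Het mOBs (157 and 15.5), *Cebpb* and *Jdp2* in haematopoietic-like cells, *Cebpg* in endothelial-like cells.

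The share of cells with a UMI was compared in mOBs thinned to 5000 UMIs each (618 WT and 387 Het). In WT mOBs an *Atf5* UMI was found in 20.8% (S1), 17.1% (S2), 8.46% (S5) and 14.6% (S6) of cells. In Het mOBs it was found in 62.0% (S3), 61.4% (S4), 32.7% (S7) and 44.1% (S8). The means were 15.3 ± 5.201% and 50.04 ± 14.3% (SD, n = 4 each, two-sided exact permutation p = 0.0286). Without thinning they were 38.4 ± 11.8% and 69.9 ± 19.99% (exact p = 0.0857). Haematopoietic-like cells thinned alike had an *Atf5* UMI in 4.84% (WT) and 6.27% (Het). Median depth before thinning was 12348 to 21116 UMIs per mOB and 3174 to 16523 per haematopoietic-like cell, by library.

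A *Trib3* UMI was found in 0%, 0%, 0.735% and 0% of thinned WT mOBs (S1, S2, S5, S6) and in 6.33%, 6.25%, 3.06% and 5.88% of Het mOBs (S3, S4, S7, S8), with exact permutation p = 0.0286 for 0.184% against 5.38 ± 1.56% (n = 4 each). Haematopoietic-like cells had 0.192% (WT) and 0.134% (Het). No background was estimated, and the WT share rests on 2 of 618 mOBs, so it is not resolved from 0. The exact 95% upper limits of the 3 shares of 0 were 4.99% (S1), 4.74% (S2) and 1.85% (S6). The share was not called with a looser (exact permutation p = 0.429) or stricter (0.143) OB selection, in mOBs over 5% *Col1a1* (0.143) or with 2000 UMIs (0.143). For both genes, leaving out any 1 WT library gave an exact permutation p of 0.0571, so neither was called there. Shares of the other 8 genes were without a call. The portion of all genes that would pass this test was not computed. *Atf4* was found in 48.6 ± 13.7% of WT and 50.9 ± 4.14% of Het mOBs (exact p = 0.743, n = 4 each). *Nupr1* was in 69.3% and 78.7%, *Jdp2* in 16.2% and 24.3%, *Cebpg* in 12.9% and 17.6%, *Cebpb* in 13.1% and 10.6%, *Ddit3* in 6.83% and 8.90%, *Sesn2* in 3.54% and 4.82% and *Chac1* in 2.70% and 1.303%. Those of *Jdp2*, *Cebpg* and *Cebpb* lay below the shares of haematopoietic-like cells (31.6% and 32.5%, 19.7% and 18.3%, 49.0% and 46.9%).

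Co-detection asked whether thinned mOBs with an *Atf5* UMI more often had a UMI of another of the genes. For *Atf4* the Het libraries gave 59.2% of mOBs with against 40% of those without an *Atf5* UMI in S3, 57.4% against 38.2% in S4, 50% against 43.9% in S7 and 66.7% against 47.4% in S8. The log2 odds ratios were 1.09, 1.11, 0.35 and 1.08 in these, and in the WT libraries 0.48 (S1), -0.76 (S2), 0.36 (S5) and 0.10 (S6). All Het libraries were above 0, and 3 of 4 WT libraries. The mean over the 8 was 0.48 (two-sided exact sign-flip p = 0.078, n = 8), and the Het minus WT difference was 0.86 (exact permutation p = 0.0857, a test added after the values were seen), so neither passed. The mean over libraries passed without S2 (0.65, exact sign-flip p = 0.0156) and with stricter OB selection (0.56, exact p = 0.0078), and it turned to -0.10 in mOBs over 5% *Col1a1*. Unthinned cells gave 1.78, with cells of all depths together.

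Among the 6 genes found in at least 5% of thinned mOBs, none had an exact p under 0.05, while 2.81% of 7830 genes had one with a mean above 0 and 0.562% were above 0 in all 8 libraries. The mean log2 odds ratio was 0.79 for *Jdp2*, 0.66 for *Ddit3* (exact p = 0.055, above 0 in 7 of 8 libraries, and 0.85 with exact p = 0.0156 without S2), 0.48 for *Cebpg*, 0.27 for *Nupr1* and 0.10 for *Cebpb*, against a median of 0.0098 over all genes. *Trib3*, *Sesn2* and *Chac1* were in too few cells for an odds ratio to be read.

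**Figure D5:**
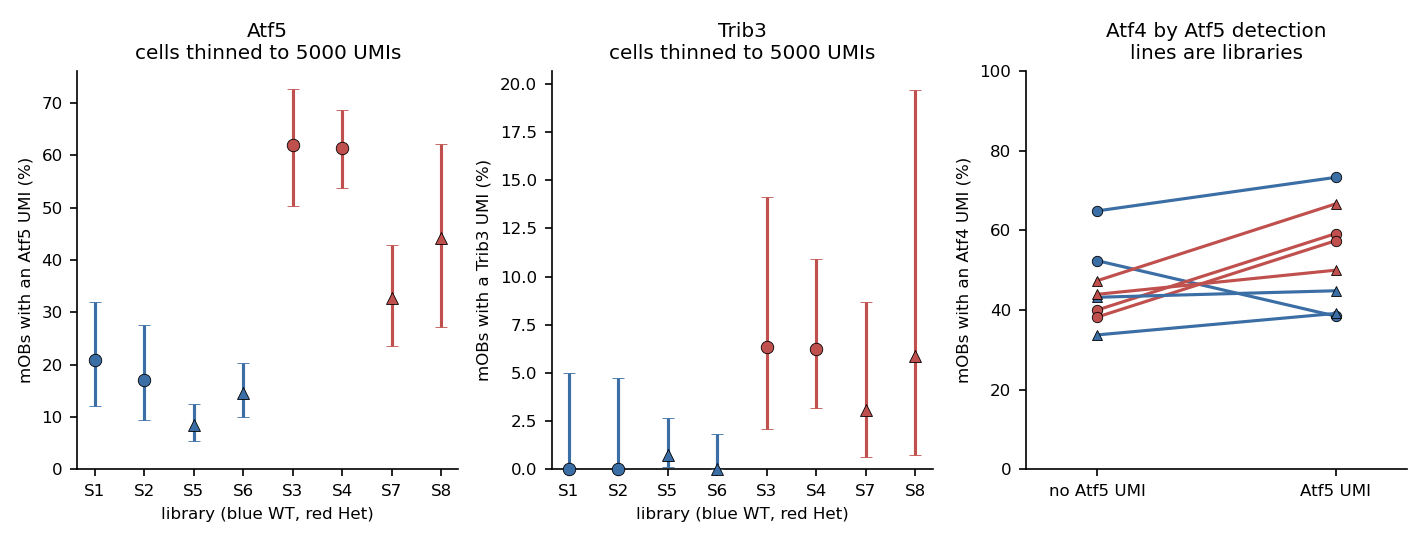
Share of mOBs with an *Atf5* (left) or *Trib3* (middle) UMI after thinning to 5000 UMIs, by library with exact 95% binomial intervals, and share with an *Atf4* UMI by *Atf5* detection (right, 1 line per library; blue WT, red Het, circles kit version 3, triangles 3.1). Het shares of *Atf5* (32.7% to 62.0%) lie above WT shares (8.46% to 20.8%), and all 4 Het lines go up to the right.

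Neighbouring genes overlap some of the 10, and whether the counting used strand is not given in the sources used here. On the other strand *Atf5* is overlapped by *Nup62* (216 UMIs in mOBs, log2 fold change -0.07) and *Il4i1* (13), against its own 1505 UMIs. *Cebpb* (502 UMIs) is overlapped by *Tmem189* (427) and *Ddit3* (299) by *Mars* (572). The neighbour had fewer UMIs than *Cebpb* and more than *Ddit3*. Whether reads of the other strand entered any of these levels was not tested.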

How the data were processed

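The values were UMI counts as deposited, not normalized, which the authors made with Cell Ranger (5.0.0 for kit version 3 and 6.0.1 for version 3.1, per the file headers; build mm10 per the labels). Kept cells had at least 500 genes and under 10% mitochondrial UMIs. OBs had at least 10 *Col1a1* UMIs and at least 2 UMIs in at least 2 of *Runx2*, *Sp7* and *Ibsp*; the study's own cell annotation was not used. Doublets were kept, and left out in an alternative. At most 24 barcodes (0.558% of the smaller library) were shared by any pair of libraries, and 128 mOBs (11.9%) had at least 3 markers of another class.

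UMI counts were summed per library and population and fitted with edgeR 4.0.16 (R 4.3.3, limma 3.58.1: filterByExpr, TMM, robust glmQLFit, glmQLFTest) on kit version and genotype. Stages in WT were compared with the library as a block. P-values were adjusted by Benjamini-Hochberg over all genes tested and called under 0.05. DESeq2 1.42.0 was an alternative. Exact permutation (70 assignments) and sign-flip (256) tests were two-sided. Library sums held 664702 to 4805858 UMIs in mOBs, so 3 UMIs correspond to 0.624 to 4.51 UPM. Intervals are exact, 95%, and cover counting error only. Pups behind a library were pooled, so p-values measure the spread between libraries. Python 3.11.15, numpy 2.4.6, pandas 2.3.3, scipy 1.17.1 and matplotlib 3.10.9 were used, and the fits were tested on simulated data. Coordinates are from GENCODE M21 (GRCm38), which held 30934 of 31053 gene identifiers (99.6%).

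All 10 genes were named, and of each further list those called in mOBs, at most 4 by size of change. The genes, lists and definitions were chosen with earlier results of these data known. The alternatives were other normalizations, filters, OB selections, stage limits, depths and covariates, each library left out, and, added after seeing the data, each kit version alone, other cells without haematopoietic-like or cartilage-like cells in the difference, and a dispersion prior that was not robust.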

Additional observations from a re-analysis of the deposited data

Results flagged for a closer look

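*Cebpb* in the mOBs of Het S7, at 34.3 UPM, lay far from the other 3 Het libraries (21.7 to 23.3), with a gap to the nearest of 0.872 of the group's range, above Dixon's 95% critical value. It was the 1 such library among 78 groups of 4 libraries tested, and chance alone gives about 1 in 20. The genotype difference of *Atf5* was larger in mOBs than in the other cells by 1.59 on the log2 scale, and that of *Jdp2* by 1.25, both by edgeR's test of the difference. Without haematopoietic-like cells among the other cells these were 1.79 and 0.83, and *Jdp2* was no longer called (adjusted p = 0.103). *Cebpb* in mOBs lay on opposite sides in the kit versions. With kit version 3 both Het libraries were below both WT libraries (log2 ratio of the mean UPM -1.06), and with version 3.1 both were above. That difference between kit versions was not tested.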

How the results depend on the processing

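Of 955 values under alternatives, 764 kept their direction and side of the threshold or stayed within the spread, 45 lost a call, 20 gained one, 110 moved and 16 reversed. The number of the 10 genes called in mOBs was 2 (64 of all 9623 genes). It was 5 without a filter (536 of 18427) and within kit version 3 (571 of 8657). In cells thinned to 2000 UMIs it was 1 (27 of 2822). It was 0 without kit version in the model (0 of 9623) or within kit version 3.1 (2 of 11039). When 1 library was left out it was 1 to 3 (16 to 192 over all genes). In dOBs the number went from 0 to 1 without a filter (269 of 19416) and within kit version 3 (107 of 8739). Within kit version 3 it was 1 in eOBs in place of 0 (337 of 4439). In other cells it was 3 in place of 0 (5216 of 15626). The difference between mOBs and other cells was called in 4 genes without a filter (1111 of 25384) or with looser selection (492 of 13200). It was called in 1 when thinned (57 of 5337) or without haematopoietic-like cells (51 of 11676). The last was an alternative added after seeing the data. The difference between mOBs and dOBs was called in 2 without a filter (104 of 25384). It was called in 0 to 1 with a library left out (0 to 2 over all genes). mOBs against eOBs in WT gave 3 without a filter (2127 of 18787) and 1 when thinned (314 of 2595). With a library left out they gave 1 to 2 (754 to 1243 over all genes). Genes called over the whole table ran from 0 to 571 in mOBs (64), 0 to 269 in dOBs (0), 0 to 337 in eOBs (1), 0 to 5216 in other cells (0), 10 to 1111 for the difference from other cells (172), 0 to 104 for that from dOBs (0), 314 to 3178 for mOBs against eOBs (1422) and 2263 to 4282 against other cells in WT (3614). Without TMM the higher and lower calls were 56 and 17 in mOBs (37 and 27 with it), 64 and 21 for the difference from other cells (111 and 61; 97 and 119 without collagen genes in the library size), and 838 and 3444 for mOBs against other cells in WT (1249 and 2365), where the median of all genes moved from -0.14 to -0.39. In other cells the Het median moved from 0.027 to 0.15.

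In mOBs the fold change of *Atf4* (0.03) turned to -0.30 when thinned, -0.0053 without kit version, -0.021 with looser selection and -0.23 within kit version 3, and was -0.16 to 0.15 with a library left out. *Ddit3* turned to -0.031 and *Cebpb* to 0.56 within kit version 3.1. *Sesn2* turned to 0.017 without kit version, 0.030 with looser selection and 0.25 within kit version 3.1, and was -0.42 to 0.083 with a library left out. The *Trib3* difference in percent of UMIs was 0.00192 and 0.00108 within kit versions 3 and 3.1 (exact permutation p = 0.333 each). It was 0.00126 to 0.00186 with a library left out (exact permutation p = 0.0571 without a WT library, which was not called). Shares of mOBs were called for 2 genes, for 0 within either kit version, for 1 with looser or stricter selection, with 2000 UMIs or without thinning, and for 0 to 3 with a library left out. How many of all genes pass this test was not computed. Co-detection was called for none, for 3 with stricter selection, 1 with 2000 UMIs, 5 without thinning and 0 to 2 with a library left out, and that of *Atf4* turned to -0.10 in mOBs over 5% *Col1a1*. The cause of these changes was not tested.

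Libraries of the same number did not deviate together (r = -0.105 and -0.0595 over 5739 genes). Each deviation was from the mean of 2 libraries, so a kit version gives only a single r. The check cannot decide whether such libraries were paired. With the replicate block, 39 genes and the same number of the 10 (2) were called in mOBs, and the *Trib3* difference stayed at 0.00150 (exact sign-flip test, which gave the smallest p that 4 pairs allow and cannot pass). *Trib3* in all OB stages, *Chac1* in eOBs and dOBs and *Sesn2* in eOBs did not pass the filter on low counts.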

Other observations

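The genes whose levels followed *Atf5* most closely over 32 sums (eOBs, dOBs, mOBs and other cells of 8 libraries, each less the mean of its kit version and population) were *Eif4ebp1*, a repressor of cap-dependent translation (Pearson r = 0.83), *Acta2* (0.79), *Map1b* (0.78), *Cox6a2* (0.75) and *Myl12a* (0.75), out of 6379 genes with at least 20 CPM in mOBs. Those closest to *Atf4* were *Ndufb11* (0.75), *Psme3* (0.72), *Srsf11* (0.71), *Rpl36al* (0.71) and *Ube2d3* (0.71). Between the 10 genes, r was 0.64 for *Atf4* and *Sesn2*, 0.57 for *Atf5* and *Jdp2*, 0.46 for *Atf5* and *Nupr1*, 0.44 for *Atf5* and *Cebpg* and 0.04 for *Atf4* and *Atf5*. The 4 sums of a library share its preparation and depth, and the genotype difference is part of these values, so they are a description of these libraries.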
